A study of Mus musculus with 2 samples.

Results

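The regions described here are accessible sites at the starts of genes for long noncoding RNAs (lncRNAs) in mouse calf muscle. They were chosen by position. A member is a DNase peak that overlaps the 1 kb on either side of an annotated start of a lncRNA gene, of 7 gene types in GENCODE release M21, and lies over 1 kb from every protein-coding start. Replicate 1 had 2459 such peaks among 97499 and replicate 2 had 1667 among 61664 (mean 2063 ± 560, SD, n = 2). Member peaks of the 2 libraries that touched were merged, which gave 2672 lncRNA promoter regions named by 1820 genes. The tissue was the gastrocnemius, a large calf muscle, taken from male B6CASTF1/J mice, the first-generation offspring of C57BL/6J and CAST/EiJ parents, at 25 days of age. There is 1 group, with no treatment and no other tissue, and 1 DNase-seq library for each of biological replicates 1 and 2. The labels number the males differently but give the same donor identifier, so that separate animals rest on those descriptions. DNase-seq maps open chromatin by sequencing the ends of fragments that the enzyme DNase I cuts free, and whole muscle mixes myofibres with satellite, vascular, connective tissue and blood cells. Fewer cells with an open site and less opening per cell cannot be told apart in such data.

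Most lncRNAs are transcribed by RNA polymerase II from promoters of their own, and are spliced and capped like messenger RNAs without coding for a long protein. Some act at the place where they are made, as Xist does in silencing the X chromosome and Airn and Kcnq1ot1 do at imprinted clusters, whereas others, such as Malat1 and Neat1, build or fill nuclear bodies. Many more are named only by a gene model. In muscle, lncRNAs such as H19, Dubr and the one that hosts the muscle microRNAs Mir206 and Mir133b have been tied to the differentiation of myoblasts.

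The tissue label was checked against coding promoters. All 8 skeletal muscle genes listed for this (such as Acta1, Ckm and Myog) had a promoter peak in each library, and 0 of 6 genes of liver, leukocytes, cardiac atrium, keratinocytes and forelimb did so in either. Peak signal is given as the authors deposited it, and every value was a whole multiple of 0.00591 in replicate 1 and of 0.00854 in replicate 2, as a tag density scaled to library size would be. On that reading the libraries held about 169000000 and 117000000 tags, and the median lncRNA promoter peak held 123 tags in replicate 1 and 112 tags in replicate 2. The lowest held 27 and 11 tags. Intervals below are Wilson 95% intervals for a share and Newcombe 95% intervals for a difference of shares. They cover counting error only, since peaks of 1 library share its animal and its depth. A difference was called where its interval lay on the same side of 0 in both libraries.

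The central 150 bp of 8 lncRNA promoter peaks are shown here, read from GRCm38 (mm10) on the plus strand, 5′ to 3′, around the centre of the replicate 1 peak, so that the letters behind the signals can be compared. Malat1, Dubr and Meg3 are listed muscle or widely expressed lncRNAs with a peak in both libraries. The next pair are the strongest members whose sequence stands at 1 place in the genome and holds a searched motif. The last 3 are the strongest members beside coding genes of muscle. Capitals mark matches on either strand to the searched motifs, which are given with the motif shares further on.
Malat1, chr19:5803596-5803745: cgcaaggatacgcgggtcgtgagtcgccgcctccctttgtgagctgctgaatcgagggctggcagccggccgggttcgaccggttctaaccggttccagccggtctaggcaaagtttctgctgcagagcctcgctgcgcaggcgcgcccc
Dubr, chr16:50732716-50732865: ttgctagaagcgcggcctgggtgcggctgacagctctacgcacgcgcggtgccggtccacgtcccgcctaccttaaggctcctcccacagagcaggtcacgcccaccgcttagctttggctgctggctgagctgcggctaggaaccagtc
Meg3, chr12:109542976-109543125: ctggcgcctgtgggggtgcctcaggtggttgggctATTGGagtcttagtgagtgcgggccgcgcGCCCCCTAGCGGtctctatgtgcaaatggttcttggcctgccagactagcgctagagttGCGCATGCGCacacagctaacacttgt
1700096K18Rik, chr5:25529656-25529805: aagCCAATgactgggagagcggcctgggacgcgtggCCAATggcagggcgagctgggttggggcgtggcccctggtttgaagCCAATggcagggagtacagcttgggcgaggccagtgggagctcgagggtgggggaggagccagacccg
6720427I07Rik, chr13:48546586-48546735: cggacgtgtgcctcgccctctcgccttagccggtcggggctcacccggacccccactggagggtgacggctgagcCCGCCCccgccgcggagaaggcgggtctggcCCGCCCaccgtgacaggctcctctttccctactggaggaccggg
1700113A16Rik, chr3:88177676-88177825: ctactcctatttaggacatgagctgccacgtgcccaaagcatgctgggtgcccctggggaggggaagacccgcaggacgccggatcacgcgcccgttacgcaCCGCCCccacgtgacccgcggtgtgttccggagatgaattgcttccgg
Gm12319, chr11:70655866-70656015: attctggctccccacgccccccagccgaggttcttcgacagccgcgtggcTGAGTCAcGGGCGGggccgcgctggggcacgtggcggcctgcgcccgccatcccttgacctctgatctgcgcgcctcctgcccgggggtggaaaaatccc
2310065F04Rik, chr11:67120856-67121005: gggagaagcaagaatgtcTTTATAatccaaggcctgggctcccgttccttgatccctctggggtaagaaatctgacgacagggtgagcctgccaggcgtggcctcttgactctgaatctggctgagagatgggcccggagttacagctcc
These stretches differ in make-up. The Malat1 window was 66.7% G and C with a CpG observed over expected ratio of 1.02 and held none of the motifs, and the Dubr window was also without a match. Meg3 held a CTCF match, an NRF1 match and a CCAAT box. The window of 1700096K18Rik held 3 CCAAT boxes, and that of 6720427I07Rik held 2 SP/KLF boxes. Beside the muscle genes, 1700113A16Rik held an SP/KLF box, Gm12319 held an AP-1 match next to an SP/KLF box, and 2310065F04Rik held a TATA box at 56% G and C.

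The 12 strongest lncRNA promoters with a member peak in both libraries had mean signals from 9.84 to 72.8. The highest was that of Gm42418 (lincRNA, chr17:39846781-39846920), with 48.7 in replicate 1 and 96.9 in replicate 2. RefSeq annotates a ribosomal RNA pseudogene, Rn18s-rs5, over the same place, and 80.0% of the 31-base words in its window stood at more than 1 place in the assembled chromosomes. Next came Gm15564 (antisense, chr16:35981661-35981840), with 23.9 in replicate 1 and 18.1 in replicate 2, inside the importin gene Kpna1. Of its words, 70.0% were repeated, with a median of 4 places and at most 6. Reads from repeated sequence cannot be assigned to 1 copy, so the signals of this pair are uncertain.

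The strongest members with unrepeated windows were mostly promoters of poorly described genes. Gm15408 (chr5:149006801-149006980) had 13.1 in replicate 1 and 15.5 in replicate 2. The single-exon gene 1700096K18Rik (chr5:25529561-25529860) had 15.3 and 9.89 in replicates 1 and 2. The value of 6720427I07Rik (chr13:48546441-48546800) was 13.3 in replicate 1 and 9.73 in replicate 2. Malat1, a nuclear RNA of splicing speckles, followed with 12.1 and 10.9 at chr19:5803561-5803780, with its centre at −999 bp from the nearest annotated start. Replicates differed little for Malat1 (mean 11.5 ± 0.869, SD, n = 2) and for Gm33195 (11.0 ± 0.229). The other members of this group were 2900052L18Rik, 1700028E10Rik, Tmem250-ps, 9430037G07Rik and Gm31812, with means from 9.84 to 10.7. RefSeq counts Tmem250-ps as protein-coding, and 40.8% of the words of 9430037G07Rik were repeated.

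Among all 2672 regions, 52 (1.95%, 1.49 to 2.54%) had most of their words repeated, against 260 of 27987 protein-coding promoter peaks of replicate 1 (0.929%, 0.823 to 1.05%). By gene type, 1592 regions (59.6%) belonged to lincRNAs, 655 to antisense genes, 361 to processed transcripts, 49 to sense intronic genes, 9 to bidirectional promoter lncRNAs and 6 to sense overlapping genes. None belonged to a macro lncRNA. The strongest shared region of each of the smaller types was that of D430018E03Rik (sense intronic, 2.75 in replicate 1 and 3.61 in replicate 2), AC157931.1 (sense overlapping, 1.33 and 1.49) and 2310014F06Rik (bidirectional, 0.550 and 0.906), the last lying inside the TEAD factor gene Tead1.

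In strength, lncRNA promoters lay between protein-coding promoters and the remaining peaks. Their median signal was 0.728 in replicate 1, against 1.28 at protein-coding promoter peaks and 0.580 at other peaks. In replicate 2 it was 0.957, against 1.71 and 0.769. The difference from coding promoters was −0.81 and −0.84 on the log2 scale (mean −0.82 ± 0.0171, SD, n = 2), so that the median lncRNA promoter peak had 0.565 ± 0.00668 of the coding median. Of the lncRNA promoter peaks, 27.5% in replicate 1 and 25.9% in replicate 2 were stronger than the median coding promoter peak. The upper tail was long, with a 90th percentile of 2.81 and 3.45 and a highest value of 48.7 and 96.9, which are those of Gm42418.

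**Figure D1:**
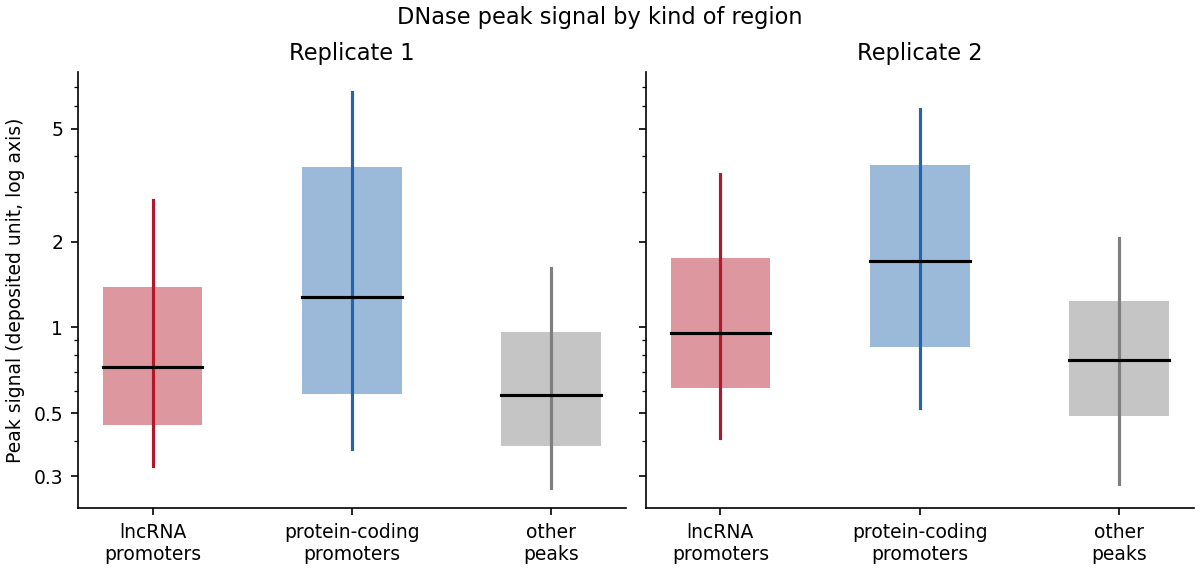
Deposited peak signal (log axis) of lncRNA promoter peaks, protein-coding promoter peaks and other peaks in each library, with boxes from the 25th to the 75th percentile, black lines at the median and thin lines from the 10th to the 90th percentile. The lncRNA medians of 0.728 and 0.957 lie below the coding medians of 1.28 and 1.71 and above those of the other peaks, 0.580 and 0.769.

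A member peak was found again in the other animal less often than a coding promoter peak and more often than the remaining peaks. Of 2459 members in replicate 1, 57.3% (55.3 to 59.2%) overlapped a replicate 2 peak, against 76.6% of coding promoter peaks, 40.2% of other peaks and 51.0% of all peaks. In replicate 2 the shares were 82.7% (80.8 to 84.5%) against 85.9%, 75.2% and 79.7%. The difference from coding promoters was −19.3 percentage points (−21.3 to −17.3) in replicate 1 and −3.16 (−5.09 to −1.36) in replicate 2, and that from other peaks was 17.1 (15.1 to 19.1) and 7.48 (5.54 to 9.28). Replicate 1 has more peaks and more tags, and its part in the unequal sizes was not tested. The difference from coding promoters was no longer called with the stricter deposited lists (mean −13.5 points) or the stronger part of each list (−11.5). In the stricter of the deposited lists, 66.0% and 57.3% of the lncRNA promoter peaks of replicates 1 and 2 had a counterpart, against 77.8% and 75.9% of coding promoter peaks and 61.7% and 57.6% of all peaks.

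CpG-rich sequence set lncRNA promoters apart from coding ones. Most vertebrate housekeeping genes start in CpG islands, stretches that keep the CG pairs lost from the rest of the genome. A peak was called CpG-island-like where its central 200 bp had at least 50% G and C and a CpG observed over expected ratio of at least 0.6. This held for 20.8% of lncRNA promoter peaks in replicate 1 (19.2 to 22.4%), against 59.9% of coding promoter peaks, 4.96% of other peaks and 21.1% of all peaks. In replicate 2 it held for 28.8% (26.7 to 31%), against 66.7%, 8.55% and 32.1%. The difference from coding promoters was −39.1 points (−40.8 to −37.4) and −37.9 points (−40.1 to −35.6) in replicates 1 and 2.

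The CpG-island-like members were the stronger ones. Their median signal was 1.41 in replicate 1 and 1.72 in replicate 2, against 0.674 and 0.863 for the other lncRNA promoter peaks. In 84.1% and 88.8% of cases they met a peak in the other library, against 50.2% and 80.3%, and their centres lay a median of 167 and 156 bp from the nearest lncRNA start, against 348 and 346 bp. With the CpG class held equal, the gap to coding promoters was not the same in the 2 classes. Among CpG-island-like peaks the median of lncRNA promoters was lower by −0.80 in replicate 1 and −0.58 in replicate 2 (log2 difference; 1.41 against 2.45, and 1.72 against 2.57). Among the other peaks the differences were −0.09 and −0.11 (0.674 against 0.716, and 0.863 against 0.931). The sharing of CpG-island-like peaks with the other library was lower than at coding promoters in both libraries. The differences were −5.39 points (−8.84 to −2.44) in replicate 1 and −2.83 points (−6.00 to −0.267) in replicate 2. Among the other peaks sharing was lower in replicate 1, by −6.97 points (−9.37 to −4.57), and higher in replicate 2, by 5.80 points (3.26 to 8.17).

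Peak centres sat farther from the nearest annotated start at lncRNA genes than at coding genes. More annotated starts shorten this distance, and their part in the gap was not tested. The median distance was 314 bp in replicate 1 and 280 bp in replicate 2, against 123 and 118 bp at coding promoters. Within 100 bp of a start lay 27% and 28.1% of lncRNA promoter peaks, against 45.8% and 46.3%. Members within 100 bp of a lncRNA start had median signals of 0.881 and 1.09, against 0.704 and 0.910 for those over 500 bp away. Upstream of the start lay 54.9% and 51.7%.

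Footprints, short protected stretches within a peak that mark bound protein, were about as frequent as at coding promoters. At least 1 deposited footprint lay in 83.2% of lncRNA promoter peaks in replicate 1 (81.6 to 84.6%), against 82.2% of coding promoter peaks and 81.4% of all peaks. In replicate 2 the share was 79.2% (77.2 to 81.1%), against 82.8% and 77.2%. The difference from coding promoters was 0.972 points (−0.621 to 2.47) in replicate 1 and −3.57 points (−5.63 to −1.63) in replicate 2, so it was not called, though with 500 bp windows it was (mean −3.98 points). The mean number of footprints per peak was 2.34 and 2.43, against 3.03 and 3.50, where coding promoter peaks were also wider (median 220 and 260 bp, against 200 bp at lncRNA promoters in each library).

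For CTCF, the E-box, MCAT, AP-1 and SP/KLF, the share of lncRNA promoters with a match in the central 150 bp lay between those of coding promoters and the remaining peaks, although the interval of the difference from the remaining peaks spanned 0 for the E-box in replicate 2 (−2.90 to 0.851 points) and for MCAT (−2.25 to 0.0677) and AP-1 (−1.58 to 0.282) in replicate 1. Both strands were searched for CTCF, MEF2, NRF1, YY1 and NF1 consensus sequences, and for E-box CAGCTG (MyoD family), MCAT CATTCC (TEAD factors), AP-1 TGACTCA or TGAGTCA, SP/KLF GGGCGG, ETS CCGGAAGT, CRE TGACGTCA, CCAAT (NF-Y), TATAAA and RUNX TGTGGTT. MCAT and CCAAT matches can overlap. CTCF, which anchors chromatin loops and insulates domains, had a match in 8.26% of lncRNA promoter peaks in replicate 1, against 5.16% of coding promoter peaks, 11.7% of other peaks and 9.72% of all peaks. In replicate 2 the shares were 9.24%, against 4.52%, 13.8% and 10.0%. The difference from coding promoters was 3.10 points (2.04 to 4.28) and 4.72 points (3.39 to 6.22), and that from other peaks −3.42 points (−4.47 to −2.24) and −4.59 points (−5.94 to −3.06), both called.

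The E-box bound by MyoD and related factors stood in 18.5% and 17.6% of lncRNA promoter peaks in replicates 1 and 2, against 11.7% and 10.4% of coding promoter peaks, and 18.1% and 15.4% of all peaks. The GGGCGG box of SP and KLF factors stood in 17% and 18.9%, against 41.1% and 40.9% of coding promoter peaks, and 17.3% and 22.2% of all peaks. AP-1 matches were found in 5.65% and 3.06%, against 2.34% and 1.60% (5.19% and 3.27% of all peaks). MCAT was found in 9.11% and 7.56%, against 6.06% and 5.51% (9.03% and 7.64% of all peaks). The intervals of each of these 4 differences from coding promoters lay on 1 side of 0 in both libraries. The CCAAT box was found in 17.3% and 16.1%, against 19.9% and 17.4%, with an interval that spanned 0 in replicate 2 (−3.08 to 0.576 points; 18.4% and 16.5% of all peaks). The TATA box was rare everywhere, at 3.54% and 2.82%, against 2.07% and 1.67% of coding promoter peaks (2.99% and 2.22% of all peaks). E-boxes were fewer in CpG-island-like members (8.61% and 10.4%) than in the other members (21% and 20.6%).

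**Figure D2:**
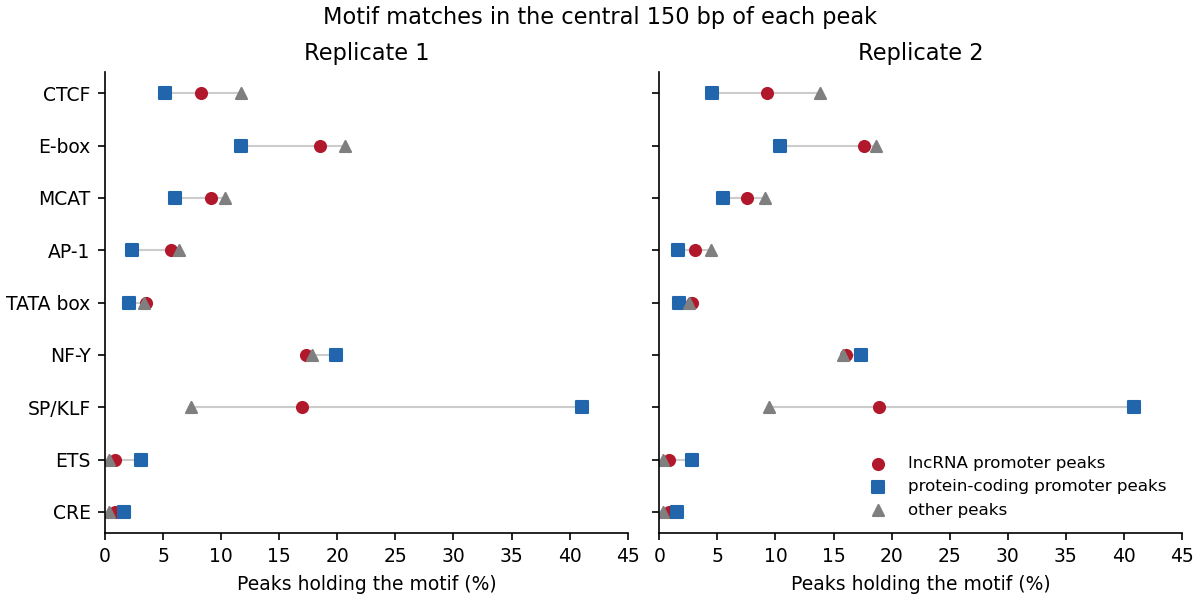
Percent of lncRNA promoter peaks (circles), protein-coding promoter peaks (squares) and other peaks (triangles) whose central 150 bp hold each motif, by library. For CTCF, the E-box and SP/KLF the circle lies between the square and the triangle, as at 8.26%, 5.16% and 11.7% for CTCF in replicate 1.

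Seen from the genes, most annotated lncRNA promoters had no member peak in this muscle. A lncRNA gene was counted as open where a member peak lay within 1 kb of a start. Of 8398 lncRNA genes with a start over 1 kb from every coding start, 1693 (20.2%, 19.3 to 21%) were open in replicate 1 and 1201 (14.3%, 13.6 to 15.1%) in replicate 2, and 1102 were open in both. Of 21938 protein-coding genes, 66.5% and 64.2% had a promoter peak. The shares follow unlike rules, since a peak within 1 kb of a coding start counted for coding genes alone. The authors list a q-value for positions where it lies below 0.05, so weaker signal cannot be read from their list. Such a position lay near a start in 151 of the 6705 lncRNA genes without a member peak in replicate 1. In replicate 2 it did so in 141 of 7197. Of the genes with a member peak, 99.3% had such a position in each library. Positions within 1 kb of a coding start were left out, as for member peaks, so the counts cannot show that a start was closed.

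The kind of start and its surroundings went with the presence of a peak. Of 521 lncRNA genes whose most 5′ start lay in CpG-island-like sequence, 53.0% and 50.5% had a promoter peak in replicates 1 and 2, against 18% and 11.9% of the 7877 others. That is a difference of 35.0 points (30.6 to 39.3) in replicate 1 and 38.6 points (34.2 to 42.9) in replicate 2. Genes whose nearest coding gene had a promoter peak of its own had one in 22.9% and 16% of cases, against 12% and 9.56% where it had none. This difference was 11.0 points (9.22 to 12.7) and 6.48 points (4.92 to 7.96). It lay on the same side of 0 within starts that were CpG-island-like (14.3 and 16.9 points) and within those that were not (10.2 and 5.47 points). Within 1 to 5 kb of a coding start 25.5% and 19.3% of lncRNA genes had a peak, and over 100 kb away 14% and 8.92%.

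Gene type and annotation also went with it. Processed transcripts, some of which host small nucleolar RNAs or microRNAs, had a promoter peak in 36.6% and 27.7% of cases, lincRNAs in 19% and 13.5%, antisense genes in 20.1% and 14%, and sense intronic genes in 11.5% and 7.54%. Genes with 4 or more annotated starts had a peak in 47.1% and 35.0%, against 16.6% and 11.8% of genes with 1 start, and more starts give more windows in which a peak can be counted. Genes with a transcript at support level 1, the best grade of the annotation, had one in 24.9% and 17.8%, against 16% and 11.5% at levels 2 to 5.

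**Figure D3:**
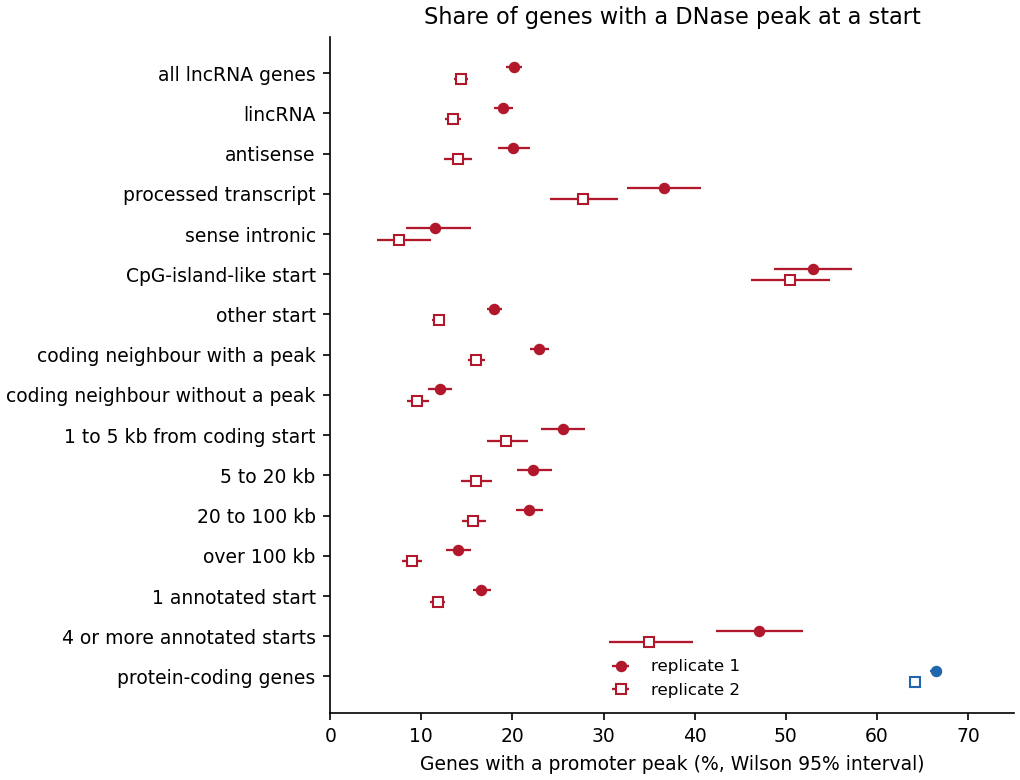
Percent of genes with a DNase peak at a start, with Wilson 95% intervals, in replicate 1 (filled circles) and replicate 2 (open squares), for classes of lncRNA genes (red) and for all protein-coding genes (blue). Genes with a CpG-island-like start stand at 53.0% and 50.5%, against 20.2% and 14.3% of all lncRNA genes. Peaks within 1 kb of a coding start count for coding genes alone.

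Of the lncRNAs with a known part in muscle, 11 of 14 listed symbols were in the annotation with an eligible start, of which 8 were open at a start in replicate 1, 7 in replicate 2 and 6 in both, beside 20.2% and 14.3% of all eligible lncRNA genes. Malat1 was the strongest of them, as given above. Neat1, the scaffold of nuclear paraspeckles, had 7.81 in replicate 1 and 4.84 in replicate 2, at a peak that also lay beside the start of the divergent gene Frmd8os. Dubr, which promotes the differentiation of myoblasts in mouse, had 4.08 and 3.40, centred 18 bp upstream of its start in replicate 1. 2310065F04Rik, a lincRNA beside the myosin heavy chain cluster, had 2.28 and 1.38. Bvht, named for a role in cardiac commitment of mouse embryonic stem cells, had 1.82 and 2.08. Meg3, a maternally expressed imprinted RNA, had 1.11 and 1.14. Its peak lay inside the gene, centred 783 bp downstream of the nearest annotated start in replicate 1.

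The promoters of H19 and of Nctc1, neighbours in the imprinted Igf2 domain, had a peak in 1 library alone. H19, a maternally expressed RNA that is abundant in fetal muscle, had a signal of 1.40 in replicate 1 at chr7:142578141-142578340, and the nearest replicate 2 peak lay 21581 bp away. Nctc1, transcribed across the muscle enhancers of this domain, had 2.30 in replicate 1, with the nearest replicate 2 peak 7219 bp away. Neither region held a base with a listed q-value in replicate 2, and the lowest q-values near these starts in replicate 1 were 3.9e-11 and 1.1e-13. With 1 library per animal, this difference has no replicate check. Mir133a-1hg, a host of the muscle microRNA miR-133a, had a weak peak of 0.572 in replicate 2 alone. Gm28653, whose annotated span holds Mir206 and Mir133b, and Mhrt, an antisense RNA of the cardiac myosin locus, had no member peak in either library. Neither had a listed position near a start, with positions within 1 kb of a coding start left out. The start of Mhrt lay 1751 bp from that of Myh6.

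Hosts of small nucleolar RNAs, whose introns carry RNAs that guide the modification of ribosomal RNA, were mostly open in this muscle. Of 12 with an eligible start, 11 were open in replicate 1 and 9 in replicate 2, against 20.2% and 14.3% of all eligible lncRNA genes. Snhg8 had 10.5 in replicate 1 and 8.31 in replicate 2. Snhg15 had 8.37 and 8.29, and Snhg5 had 7.55 and 7.21. The hosts ranged widely. Gas5 had 0.290 and Snhg14 had 0.243, each in replicate 1 alone, and Snhg1 had no member peak in either library. The Gas5 peak lay inside the gene (chr1:161036462-161036580). Starts of Snhg1 and Gas5 lay 1024 bp and 1171 bp from those of the coding genes Slc3a2 and Zbtb37. A peak within 1 kb of a coding start was not a member, so the promoters of this pair were read only in part. The medians over the hosts with a peak, each taken at its strongest peak, were 3.70 and 3.66. Among widely expressed lncRNAs, 7 of 9 had a peak in replicate 1 and 8 in replicate 2, beside the same shares of all eligible genes, and Dleu2, with 6.7 and 5.4, came next after Malat1 and Neat1.

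Of 11 imprinted lncRNAs, 7 were open in replicate 1 and 4 in replicate 2, beside 20.2% and 14.3% of all eligible lncRNA genes. Peg13 had 2.96 and 3.27. Kcnq1ot1, which silences genes on the paternal copy of its cluster, had 3.64 in replicate 1 and 1.5 in replicate 2, and Airn, which does so at Igf2r, had 2.14 and 1.91. Of the lncRNAs around the X inactivation centre and elsewhere on the X, Ftx had 4.39 and 2.28 and Firre 1.80 and 1.75. Jpx had 0.982 in replicate 1 and 1.41 in replicate 2, at peaks that did not overlap. In these males Xist had a weak peak of 0.645 in replicate 1 alone, with its centre at −997 bp from the nearest annotated start. Tsix, the antisense partner of Xist, had a peak of 0.316 in replicate 2 alone. Hosts of microRNAs had a peak in 8 and 7 of 16 cases, beside the same shares, led after Dleu2 by Mir17hg, the host of a proliferation-linked cluster, with 2.83 and 3.50. The peak of 3.55 and 1.56 at Mir22hg belonged to a gene with no start over 1 kb from a coding start, so it was left out of that count.

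Of 15 lncRNAs that lie beside genes of developmental transcription factors, 5 were open in replicate 1 and 4 in replicate 2, beside 20.2% and 14.3% of all eligible lncRNA genes. The peaks were weak, with medians over the open genes of 0.414 and 0.670. Hand2os1 had 0.414 and 0.803, Tbx3os1 had 0.461 and 0.692, and Rmst had 0.213 and 0.385. The first pair were CpG-island-like in both libraries, and Rmst was so in replicate 1. Of 11 lncRNAs of the Hox clusters, 3 had a peak in each library and 2 in both, a share near that of all eligible lncRNA genes. Hoxd3os1, with 3.95 and 3.37, was the exception in strength, and Halr1 had 0.591 and 0.538. In the list of stem cell and immune lncRNAs 5 of 9 had a peak in each library, beside the same 20.2% and 14.3%, led by Trp53cor1, a p53 target beside Cdkn1a, with 2.94 and 1.84. The strongest peaks of Mir155hg (0.852 in replicate 1 and 1.14 in replicate 2) and of Lncenc1 (0.982 and 0.752) did not overlap between the libraries, and those of Lncenc1 lay at different starts (chr13:97435961-97436260 in replicate 1 and chr13:97483887-97484091 in replicate 2), so each pair of values belongs to 2 sites. The lists share genes, H19 and Meg3 standing in 3 of them, so their counts are not independent.

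**Figure D4:**
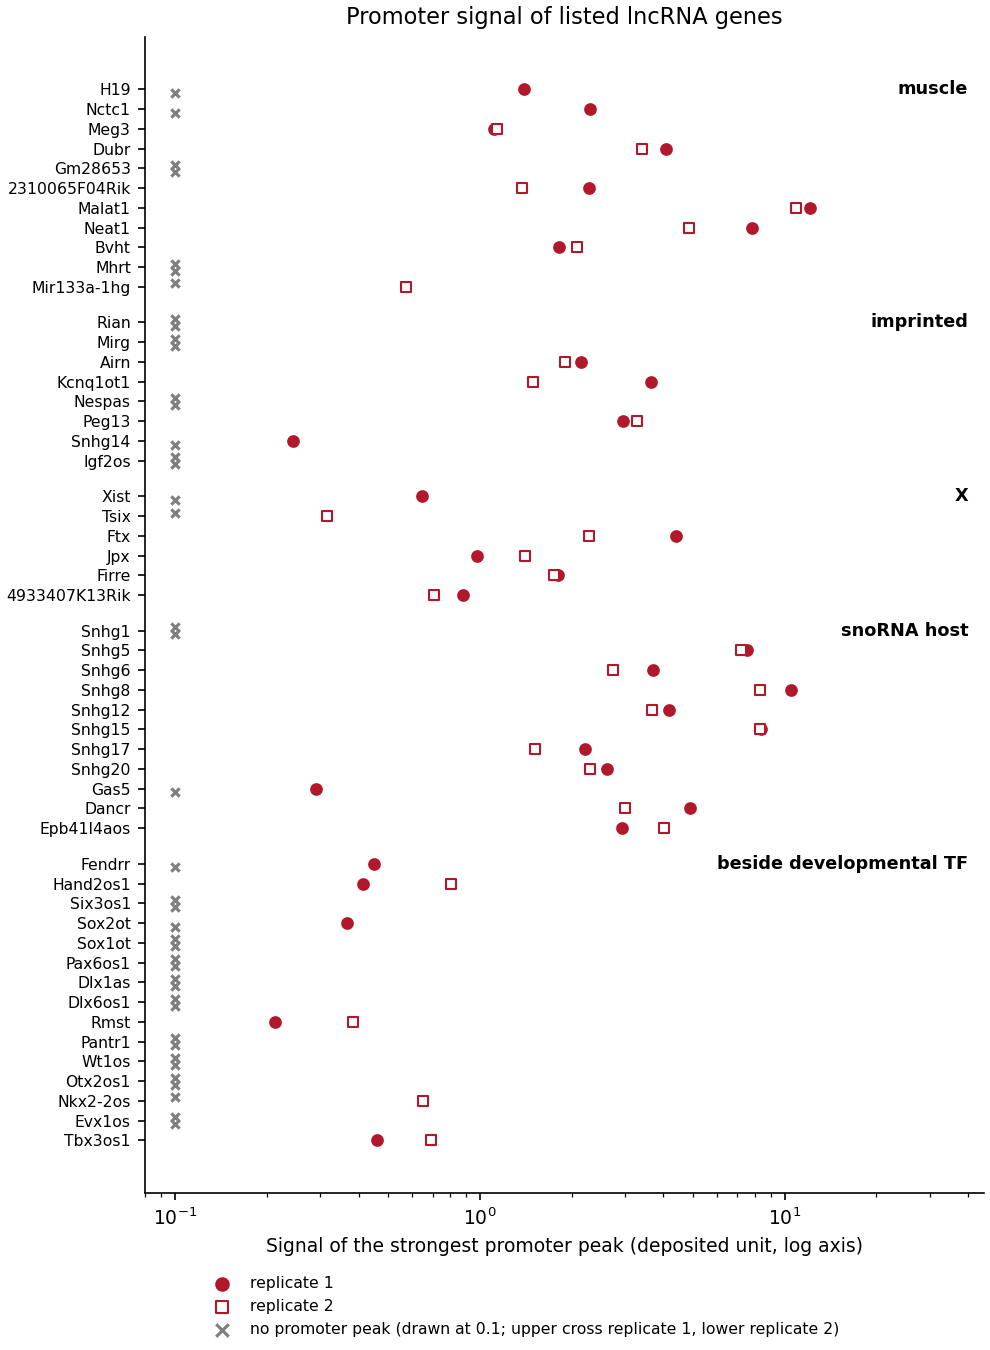
Signal (log axis) of the strongest promoter peak of each listed lncRNA gene with an eligible start, in replicate 1 (filled circles) and replicate 2 (open squares). Genes are grouped as muscle, imprinted, X, snoRNA host and beside developmental transcription factors. Crosses at the left edge mark genes without a member peak. Snhg8 stands at 10.5 and 8.31 and Rmst at 0.213 and 0.385.

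Beside coding genes of muscle, 40 lncRNA promoter regions had 1 of 23 muscle genes as the nearest coding start, of 120 listed, and 19 of these 40 overlapped a peak in both libraries, near the 50.6% of all lncRNA promoter regions. The strongest was the CpG-island-like promoter of 1700113A16Rik, 9499 bp from the start of Mef2d, a MADS-box activator of muscle genes, with 9.40 in replicate 1 and 7.74 in replicate 2. Gm12319, 1261 bp from the start of the muscle enolase gene Eno3, had 2.15 and 2.42 and was also CpG-island-like, and its peak was far enough from that start to count as a member in replicate 1 alone. The next 6 by mean signal were not. After 2310065F04Rik, which is nearest to the embryonic myosin gene Myh3, came Chrna1os, 4433 bp from the gene of an acetylcholine receptor subunit, with 1.77 and 1.53. Gm44127, 15327 bp from the start of Dysf (dysferlin, for membrane repair), had 2.08 and 1.17, and Gm49540, 6812 bp from Mb (myoglobin), had 1.63 and 1.22. Gm33926 near Mef2a had 1.68 and 1.15. The value of 1700025L06Rik, 26133 bp from the start of Myod1, the gene of a master factor of the muscle lineage, was 1.51 in replicate 1 and 1.15 in replicate 2. All 8 held at least 1 footprint in each library. DNase cutting has no strand, so a region near such a start cannot be assigned to the lncRNA rather than to the neighbouring gene.

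The animals gave similar signals at the lncRNA promoters they shared. Across 1352 pairs of overlapping peaks, which share their libraries, Spearman's rho was 0.886 and Pearson's r of the log2 signals was 0.907, against 0.951 and 0.949 over 19669 coding promoter pairs. Beyond 2-fold of the median ratio of all shared pairs lay 53 lncRNA promoter pairs (3.92%, 3.01 to 5.09%), 24 of them higher in replicate 1 and 29 higher in replicate 2, against 3.60% of coding promoter pairs and 4.64% of all 47291 shared pairs. Among regions at or above the median strength, the largest ratios toward replicate 1 were those of Gm17767 (2.04 in replicate 1 and 0.812 in replicate 2, 1.33 on the centred log2 scale), 9530020I12Rik (3.01 and 1.23) and Gm20610 (1.66 and 0.684). Toward replicate 2 they were D330050G23Rik (2.77 and 7.0, −1.33 on the centred log2 scale) and secondary regions of 2610037D02Rik (chr15:96284821-96285140, 0.923 and 2.20) and of 2810410L24Rik (chr11:120188061-120188420, 0.881 and 2.08). The strongest region of each of the last pair was the higher in replicate 1, at 4.96 and 4.31 for 2610037D02Rik and at 10.7 and 5.11 for 2810410L24Rik. The 3 toward replicate 1 were not CpG-island-like, and neither was D330050G23Rik toward replicate 2. The secondary regions of 2610037D02Rik and 2810410L24Rik were.

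**Figure D5:**
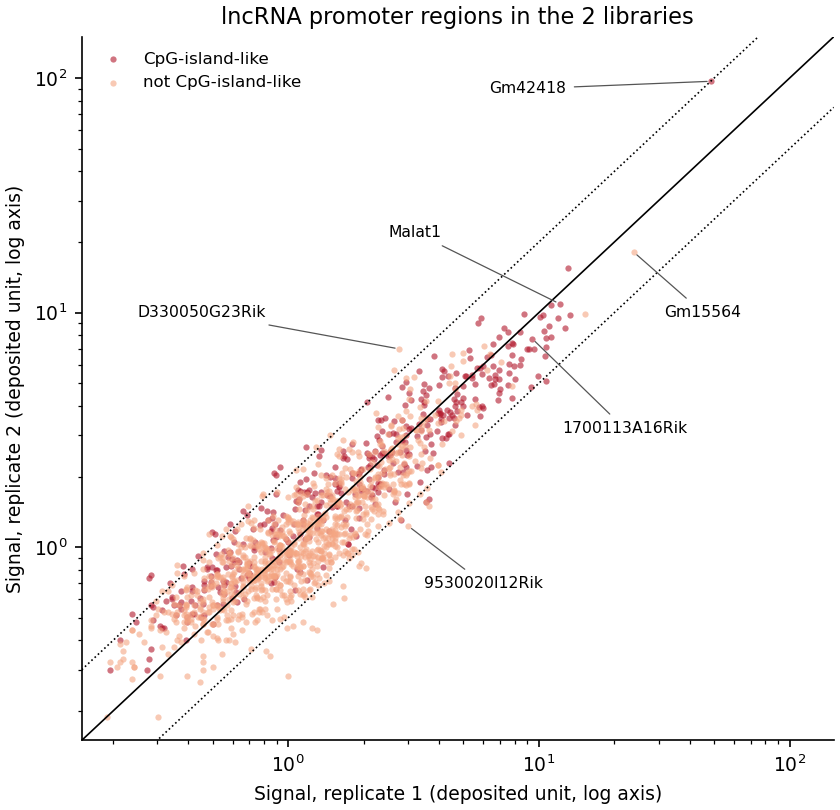
Signal of lncRNA promoter regions that overlapped a peak, member or not, in both libraries, replicate 1 against replicate 2 on log axes. Points are coloured by CpG class, with a solid line of equality and dotted lines at 2-fold. Most points lie between the dotted lines, and D330050G23Rik (2.77 and 7.0) and 9530020I12Rik (3.01 and 1.23) lie outside them.

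Of the 2672 regions, 1351 (50.6%) were seen in both libraries, 1043 in replicate 1 alone and 278 in replicate 2 alone. Regions of 1 library were weaker, with median signals of 0.473 and 0.453 in replicates 1 and 2, and were CpG-island-like in 7.67% and 17.3% of cases, against 31% of regions seen in both. A region of 1 library was not always closed in the other. The strongest of replicate 1 alone, 4833417C18Rik (6.6), Zswim6 (3.75, a processed transcript in GENCODE M21) and Gm26840 (2.66), lay at most 241 bp from a replicate 2 peak, and every base of these regions had a listed q-value in replicate 2 (340, 340 and 220 bases). The strongest of replicate 2 alone was a second peak of 1700096K18Rik (4.46), 201 bp from a replicate 1 peak. It was followed by AC124502.4 (1.43) and C030014I23Rik (1.38), which held no listed base in replicate 1. In all, 22.2% of the replicate 1 regions and 41% of the replicate 2 regions of this kind lay within 500 bp of a peak of the other library, and 45% and 24.1% lay over 5 kb from one and held no listed base there.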

How the data were processed

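DNase-seq was measured in 2 gastrocnemius libraries. Per the labels, positions are on mm10, and per the deposited README notes the reads of the libraries were not pooled. The sources used here do not name an aligner, a peak caller or a footprint caller. Per the deposited files, the authors give a signal per peak, a constant per footprint (0.01, so positions alone were used) and a q-value per position (listed below 0.05). Reads of these hybrid mice were placed on the mm10 reference, and the effect of that on the CAST/EiJ alleles was not tested.

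The longer of the 2 deposited peak lists of each library was used. Starts came from GENCODE M21 on GRCm38, the assembly of mm10. Of 10152 lncRNA genes, 1754 had no start over 1 kb from a coding start. Overlap meant at least 1 bp, a peak's midpoint was its centre, and on the reading given in the report the libraries have 169000000 and 117000000 tags. Sequence was read with pysam 0.24.0, tables with pandas 2.3.3 and numpy 2.4.6 under Python 3.11.15, and plots with matplotlib 3.10.9. Interval code was tested on simulated data.

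The members and lists were chosen with earlier results of these data known. Named were the 12 strongest shared regions, the 3 largest ratios each way and the 3 strongest regions of each library alone, every listed muscle lncRNA, the 3 strongest of each other list and of each gene type the strongest, and the 8 strongest beside muscle genes. Xist, Tsix, Frmd8os, Gas5, Snhg14, Snhg1 and the genes named in the last section were chosen after their values were seen, as was the check for repeated words. Not every searched motif and sequence is reported here. Alternatives changed windows, starts, lists, overlap and libraries.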

Additional observations from a re-analysis of the deposited data

How the results depend on the processing

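The counts and differences were recomputed with other windows, starts, peak lists and overlaps, and with each library left out. Of 82 such values for the main results, 65 were counted as unchanged, by a rule that differed between results. A footprint difference that stayed uncalled counted as unchanged even where its sign turned. A log2 difference in median signal counted as changed even at −0.85, against −0.82. With the stricter peak lists there were 1316 lncRNA promoter peaks on average, and with the stronger part of each list 1078. Under these settings the lower sharing with the other library (−13.5 and −11.5 points) was no longer called. The log2 difference in median signal was −1.03 with 500 bp windows, −0.68 with 2500 bp windows, −1.08 with the 5′ end of each gene alone, −0.98 with basic transcripts alone, −0.85 with peak midpoints, −0.75 with the stricter lists, −0.75 with the stronger part and −0.87 over 5 kb from coding starts. The mean share of lncRNA genes with a promoter peak, 17.2%, became 23.4%, 11.8% and 9.95% with 2500 bp windows, the stricter lists and the stronger part. The footprint difference was called with 500 bp windows (−3.98 points) and ran from −3.57 to 0.972 between single libraries. It was 2.23 and 2.51 points with the stricter lists and the stronger part, against −1.30. The cause of these shifts was not tested. Of 52 named promoters, 11 lacked a peak in at least 1 of the stricter lists. They were those of Meg3, 2310065F04Rik, Gm49540, Gm33926, Gm20610, Mir22hg, Halr1, Hand2os1, Tbx3os1, Rmst and Lncenc1. No paired analysis was possible because there is 1 group. Depth limits the weakest members, which held 27 and 11 tags, and 2 libraries allow no test over animals.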

Other observations

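Some lncRNA genes carried many separate accessible sites. Mir99ahg, the host of miR-99a and let-7c, held 12 lncRNA promoter regions over 16 annotated starts, and 3110039I08Rik held 11 over 40 starts. 5430431A17Rik and Frmd8os had 8 each, Dleu2 had 7, and Lncpint and Ftx had 5 each. Of the 1820 genes that name a region, 1240 had 1 region and 48 had 4 or more.

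On the X chromosome 21.6% and 14.9% of 148 eligible lncRNA genes had a promoter peak in replicates 1 and 2, against 21.6% and 15.3% of 7699 on the autosomes, and the median signal of X members was 0.603 and 0.637, against 0.733 and 0.957. None of 551 eligible Y genes had a peak in either library (upper limit 0.692%, counting error only). These genes are among the 8398, and how far the sequence at their starts is repeated was not tested.

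Motifs of CpG-rich coding promoters were rarer in lncRNA promoter peaks. ETS matches stood in 0.895% and 0.840% of them, against 3.09% and 2.85% of coding promoter peaks, NRF1 in 0.163% and 0.30%, against 0.961% and 0.880%, YY1 in 0.0407% and 0.120%, against 0.397% and 0.491%, and CRE in 0.854% and 0.840%, against 1.63% and 1.49%. Over all peaks these were 1.12% and 1.33% for ETS, 0.338% and 0.423% for NRF1, 0.124% and 0.212% for YY1, and 0.729% and 0.811% for CRE. MEF2 matches stood in 0.813% and 0.420%, against 0.322% and 0.164% of coding promoter peaks and 0.568% and 0.25% of all peaks. RUNX matches stood in 3.05% and 2.28%, against 1.59% and 1.36% (2.70% and 2.30% of all peaks). The interval of each of these 6 differences from coding promoters lay on 1 side of 0 in both libraries, whereas that of NF1 (0.163% and 0.060%, against 0.0465% and 0.0205%, and 0.0913% and 0.0568% of all peaks) did not in replicate 2. Some of these shares rest on few peaks. YY1 stood in 1 and 2 lncRNA promoter peaks, NRF1 in 4 and 5, and NF1 in 4 and 1. MEF2 stood in 20 and 7.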
